A study of Mus musculus with 32 samples.

Results

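Pramel4, Pramel5, Pramel6, Pramel7, Pramef6 and Pramef25 are 6 mouse genes of the PRAME family, taken by symbol from the GENCODE annotation of the mm10 genome and matched to the count tables by Ensembl identifier; they are 6 of the 55335 genes counted. PRAME-like genes are a rapidly duplicating mammalian family named after the human melanoma antigen PRAME. Their proteins are built of leucine-rich repeats, and several act as substrate receptors of a ubiquitin ligase built on the scaffold cullin 2. In the mouse most of the family is expressed in the germ line or the early embryo. Pramel7 is known from embryonic stem cells and the inner cell mass, where it brings about the degradation of UHRF1, a factor that maintains DNA methylation, and where LIF and STAT3 sustain its expression.

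RNA was sequenced from oocytes, embryos and stem cells of the mouse in 16 groups of 2 libraries, 32 in all. The growing oocytes were taken 14 days after birth (P14) from transgenic mice that express histone H3.3 either as H3.3K4M, in which methionine replaces lysine 4, or unaltered (H3.3WT); what drives the transgene is not given in the sources used here. MII oocytes came from wild-type females of 12 months or of 8 weeks. Wild-type 2-cell embryos from in vitro fertilisation came from untreated 12-month females, or from 6-8-week females with culture in aphidicolin (APH, which blocks replicative DNA polymerases), cycloheximide (CHX, which blocks translation), MG132 (which blocks the proteasome) or the vehicle DMSO. Wild-type 4-cell embryos from 6-8-week females had the same 3 drugs or DMSO, and the wild-type embryonic stem cell (ESC) line AB2.2, a single line, had cycloheximide, MG132 or DMSO. The 12-month embryos had no DMSO, and no other untreated 2-cell group is described, so age and vehicle cannot be told apart there. Oocytes and embryos were sequenced with Smart-seq2, a full-length method for few cells, and stem cells with a TruSeq poly(A) kit, so levels in stem cells are not set against those of embryos by a test. The labels do not say whether the 2 replicates of a group were separate collections, so p values measure the spread between these libraries, which may be technical.

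The 6 genes lie in 2 clusters of the genome (GRCm38, which is mm10). Pramel7 (chromosome 2, 87489087 to 87497093, minus strand) and Pramel6 (chromosome 2, 87506565 to 87510872, plus strand) are transcribed away from each other across a gap of 9471 bases. The other 4 genes lie within 386.252 kb of chromosome 4, in the order Pramef6 (143894237 to 143900380, minus strand), Pramef25 (143948580 to 143951016, minus strand), Pramel4 (144059126 to 144069327, plus strand) and Pramel5 (144270633 to 144280488, minus strand). RefSeq calls Pramef6 Pramel11 and Pramef25 Pramel16. Coding sequences of Pramel4 and Pramel5 were 93.5% identical, those of Pramel4 and Pramef6 87.6%, those of Pramel5 and Pramef6 87.2%, and the remaining pairs 58.8% to 65.5%.

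How far reads can be assigned to 1 gene differed between the 6. Every stretch of 50 bases in the transcripts of Pramel6, and 98.6% of those of Pramel7, occurred in no other annotated gene. The share was 74.1% for Pramel5, 66.3% for Pramef6, 36.5% for Pramef25 and only 12.6% for Pramel4, 85.0% of whose stretches also occur in the predicted gene Gm13102. Of the stretches of Pramel5, 22.9% also occur in Pramel4, and of those of Pramel4, 20.0% in Pramel5. With stretches of 100 bases the shares were 96.4% for Pramel5, 82.1% for Pramef6, 73.5% for Pramef25 and 22.6% for Pramel4. The treatment of reads with several positions is not given in the sources used here, so the values of Pramel4, and to a lesser degree those of Pramef25, Pramef6 and Pramel5, are uncertain between the gene and its copies. Gm13102 reached 8.29 and 26.1 CPM (reads per 1e6 counted in the library) in the 4-cell DMSO libraries, where Pramel4 had 69.5 and 73.6 CPM.

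The promoters of Pramel4 and Pramel5 were nearly the same sequence, 95.4% identical over 280 aligned bases, against 51.1% to 61.3% for the other 14 pairs of the 6. They are printed with that of Pramef6, which shares 2 short motifs with them, and that of Pramef25. The latter has neither motif, though Pramef25, like Pramef6, had its highest mean level in 2-cell DMSO embryos. Each is 300 bases from RefSeq (GRCm38.p6), 250 before and 50 after the annotated start, read 5′ to 3′ on the gene's strand. Capitals mark the letters GGATTA (or its reverse complement TAATCC), a form bound by the homeodomains of OBOX proteins and of CRX, and the letters ATATAAG, which resemble the TATA box.
Pramel4, chr4:144058875-144059174, plus strand: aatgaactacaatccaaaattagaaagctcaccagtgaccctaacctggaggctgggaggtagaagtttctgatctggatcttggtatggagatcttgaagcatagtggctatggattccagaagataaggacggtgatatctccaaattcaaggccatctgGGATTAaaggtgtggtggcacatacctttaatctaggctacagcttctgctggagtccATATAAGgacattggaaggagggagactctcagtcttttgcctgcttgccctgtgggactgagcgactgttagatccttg
Pramel5, chr4:144280417-144280716, minus strand: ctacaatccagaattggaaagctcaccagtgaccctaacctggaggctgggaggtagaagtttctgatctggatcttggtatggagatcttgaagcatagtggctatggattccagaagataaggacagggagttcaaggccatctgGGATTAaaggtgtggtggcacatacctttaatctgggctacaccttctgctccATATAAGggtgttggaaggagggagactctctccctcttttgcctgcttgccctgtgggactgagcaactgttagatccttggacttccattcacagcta
Pramef6, chr4:143900331-143900630, minus strand: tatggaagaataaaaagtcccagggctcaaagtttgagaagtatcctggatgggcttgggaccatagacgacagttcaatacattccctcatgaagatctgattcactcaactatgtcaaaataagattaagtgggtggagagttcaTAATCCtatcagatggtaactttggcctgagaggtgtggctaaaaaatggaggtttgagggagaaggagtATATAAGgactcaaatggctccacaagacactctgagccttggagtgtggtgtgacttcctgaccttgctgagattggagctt
Pramef25, chr4:143950967-143951266, minus strand: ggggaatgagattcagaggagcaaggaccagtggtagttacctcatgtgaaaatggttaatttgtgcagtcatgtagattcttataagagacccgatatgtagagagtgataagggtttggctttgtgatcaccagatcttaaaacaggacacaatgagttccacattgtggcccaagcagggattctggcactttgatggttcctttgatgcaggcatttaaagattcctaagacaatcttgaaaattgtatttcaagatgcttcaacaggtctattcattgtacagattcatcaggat

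GGATTA began 88 bases before the start of Pramel4 and 103 before that of Pramel5, and stood on the opposite strand 103 bases before that of Pramef6. ATATAAG began 30, 50 and 33 bases before the starts of Pramel4, Pramel5 and Pramef6. Searched on both strands, GGATTA occurs in 7.06% and ATATAAG in 2.53% of 32817 RefSeq promoters of this length. ATATAAG was chosen after these promoters had been read. Of the other motifs searched, CCAAT (37.4% of promoters) occurred in those of Pramel4, Pramel5, Pramel6 and Pramef6, and TATAAA (13.6%), GGGCGG (35.6%) and the site bound by DUX (0.207%) in none of the 6. The RefSeq start of Pramel7 lies 4675 bases from the GENCODE one, so its window is not that of the GENCODE transcript; the distance is 22 bases for Pramel5, 1 for Pramel4 and 0 for the others.

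Library totals ran from 14313718 to 34713159 counts, 1 read being worth 0.0288 to 0.0699 CPM. The shallowest libraries were 2-cell replicates 1 of aphidicolin and of MG132. Lists of markers were summed per library. The 12 oocyte markers, among them zona pellucida genes, were all detected in the P14 oocytes and summed to 43385 to 45647 CPM there and to 20563 to 22922 CPM in MII oocytes. At 2 cells they summed to 19687 and 26894 CPM with cycloheximide, 11999 and 8251 CPM with MG132, 7914 and 6288 CPM with aphidicolin, and 5101 and 5727 CPM with DMSO. The 6 annotated markers of the 2-cell stage summed to 3.22 and 4.67 CPM with cycloheximide, 15.6 and 36.1 CPM with MG132, 44.6 and 128 CPM with aphidicolin, and 703 and 968 CPM with DMSO. Stem cell libraries held 2103 to 3234 CPM of 10 fibroblast markers beside 4432 to 5752 CPM of 9 stem cell markers. The same 9 markers summed to 5583 to 6283 CPM in P14 oocytes, with only 4 or 5 of them detected. Their sum is thus not particular to stem cells.

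Without drugs, the 6 genes differed in their course. RNA of all of them was scarce or undetected in oocytes and present at the 2-cell stage. Pramel6, Pramel7 and Pramel4 then rose at the 4-cell stage, and Pramef6 and Pramef25 fell there, while Pramel5 was not called between these stages. Per kb of exon, Pramef25 (30.8 CPM per kb) and Pramef6 (21.2) were the most abundant of the 6 in 2-cell DMSO embryos with 42.7% and 29.3% of the summed level, followed by Pramel5 (7.64), Pramel4 (5.40), Pramel6 (5.28) and Pramel7 (1.86). In 4-cell DMSO embryos Pramel7 alone (317 CPM per kb) made 72.8% of the summed level, followed by Pramel6 (73.2), Pramel4 (28.7), Pramel5 (14.8), Pramef25 (1.34) and Pramef6 (0.499). The summed level of the 6 was 436 CPM per kb at 4 cells, 72.1 at 2 cells, 1.18 in 8-week MII oocytes and 0.530 in P14 H3.3WT oocytes.

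**Figure D1:**
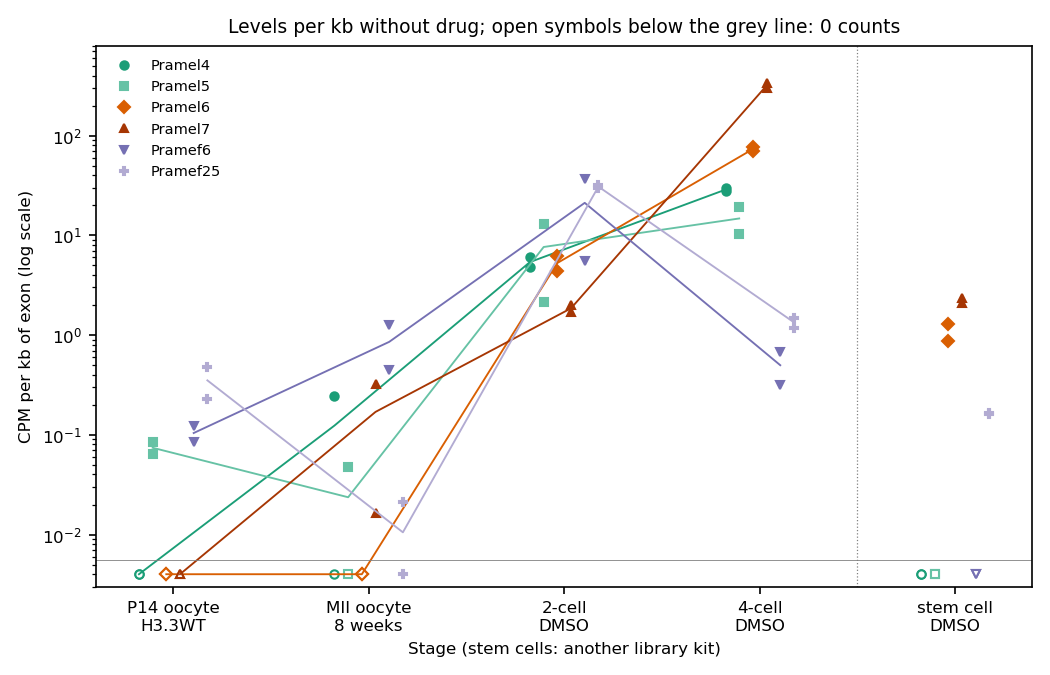
CPM per kb of exon (log axis) of the 6 genes in the groups without drugs, from P14 oocytes to 4-cell embryos, with stem cells apart because of their other library kit; each symbol is 1 library and lines join group means. Pramel7 ends highest at 4 cells (mean 317 CPM per kb), and Pramef6 and Pramef25 are highest at 2 cells (21.2 and 30.8 CPM per kb).

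In MII oocytes only single reads were found for several of the 6. The 8-week oocyte libraries held 17 and 0 counts of Pramel4, 3 and 0 of Pramel5, 0 and 0 of Pramel6, 19 and 1 of Pramel7, 73 and 26 of Pramef6, and 0 and 1 of Pramef25. The 2-cell DMSO libraries held 429 and 324 counts of Pramel4, 862 and 135 of Pramel5, 368 and 249 of Pramel6, 105 and 116 of Pramel7, 2194 and 315 of Pramef6, and 1538 and 1363 of Pramef25. Each gene was higher in both 2-cell libraries than in both oocyte libraries, and the share of all genes doing so was not counted.

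In the test of 2-cell DMSO embryos against 8-week MII oocytes (quasi-likelihood F-test of edgeR, p adjusted by Benjamini and Hochberg over all genes, threshold 0.05, used throughout) all 6 rose, where 20.2% of 22954 genes changed in either direction. All but Pramef6 passed the count filter only through embryo libraries, so the filter favoured a rise for them. Pramef25 showed a ratio of 2896 between pooled CPM with a 95% counting interval of 519 to 114436, with only 1 read in the oocytes (adjusted p = 6.8e-05). Pramel6 was at least 205-fold higher, against a floor of 3 counts over both oocyte libraries (adjusted p = 0.00075). The pooled ratio was 332 for Pramel5 (113 to 1612; adjusted p = 0.0058). Where SE is given, here and below, it is the log2 fold change divided by the square root of the F statistic. It is thus derived from the test and is no separate estimate of the spread. Pramel4 rose by 4.67 ± 0.98 (log2 fold change ± SE, adjusted p = 0.0088) and Pramel7 by 2.68 ± 0.67 (adjusted p = 0.019). Without oocyte replicate 2 the values were 3.71 and 1.80; without oocyte replicate 1, which held most of the oocyte reads, Pramel7 stood at 5.79 and Pramel4 had no oocyte read left, and both stayed called. Pramef6 rose by 3.83 ± 0.91 (adjusted p = 0.016), but its call ended without oocyte replicate 2 (adjusted p = 0.080) and without 2-cell replicate 1 (2.08, adjusted p = 0.14). It also ended when its reads were summed with those of Gm13083, which shares 29.7% of its 50-base stretches (adjusted p = 0.11); in the fit of these 4 libraries alone Pramel7 missed the threshold (adjusted p = 0.12).

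Eggs and embryos of 12-month females showed the same contrast for 5 of the 6 genes, where 12.6% of 22954 genes changed. Here too all but Pramef6 passed the count filter only through embryo libraries, so the filter favoured a rise for them. Pramef25 had 1075 and 941 counts in the 12-month 2-cell embryos, against 0 and 2 in the 12-month MII oocytes, a pooled ratio of 1008 (279 to 8329; adjusted p = 0.00012). Pramef6 had 297 and 614 counts, against 1 and 0 (pooled ratio 911, 163 to 36021; adjusted p = 0.0022), and Pramel5 had 86 and 25 counts, against 0 and 0, at least 37.1-fold higher (adjusted p = 0.023). Pramel4 (5.29 ± 1.08, adjusted p = 0.011) and Pramel7 (5.01 ± 0.82, adjusted p = 0.0035) also rose. Pramel6, with 0 and 6 counts in these embryos and 0 and 3 in these oocytes, was not called (adjusted p = 0.83). The calls of Pramel5 (adjusted p = 0.064 to 0.088) and Pramel4 (0.076) were lost without 1 or other of the libraries.

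From 2 to 4 cells the genes parted. Pramel7 had 639 and 714 CPM in 4-cell DMSO embryos, against 3.68 and 4.24 CPM in 2-cell DMSO embryos, and rose by 7.82 ± 0.71 (log2 fold change ± SE; adjusted p = 1.6e-05). Pramel6, its neighbour on chromosome 2, had 159 and 146 CPM, against 12.9 and 9.11 CPM, and rose by 4.21 ± 0.65 (adjusted p = 0.00065). Pramel4 had 69.5 and 73.6 CPM, against 15.0 and 11.9 CPM, and rose by 2.82 ± 0.84 (adjusted p = 0.018). For these 3 genes the libraries of the stages did not overlap, and the share of all genes for which this holds was not counted.

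Pramel5 had 44.4 and 23.5 CPM at 4 cells, against 30.2 and 4.94 CPM at 2 cells; its libraries overlapped and its difference of 1.39 ± 0.92 was not called (adjusted p = 0.23). Pramef25 had 2.52 and 1.99 CPM at 4 cells, against 53.8 and 49.9 CPM, and fell by 4.10 ± 0.54 on the log2 scale (adjusted p = 0.00017). Pramef6 had 1.43 and 0.653 CPM, against 76.8 and 11.5 CPM, and fell by 4.96 ± 0.97 (adjusted p = 0.0019). In all, 3 of the 6 rose and 2 fell, where 49.0% of 22954 genes changed. Pramel4 lost its call without either 2-cell library (adjusted p = 0.072 and 0.095), and Pramef6 fell by 3.16 without 2-cell replicate 1.

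**Figure D2:**
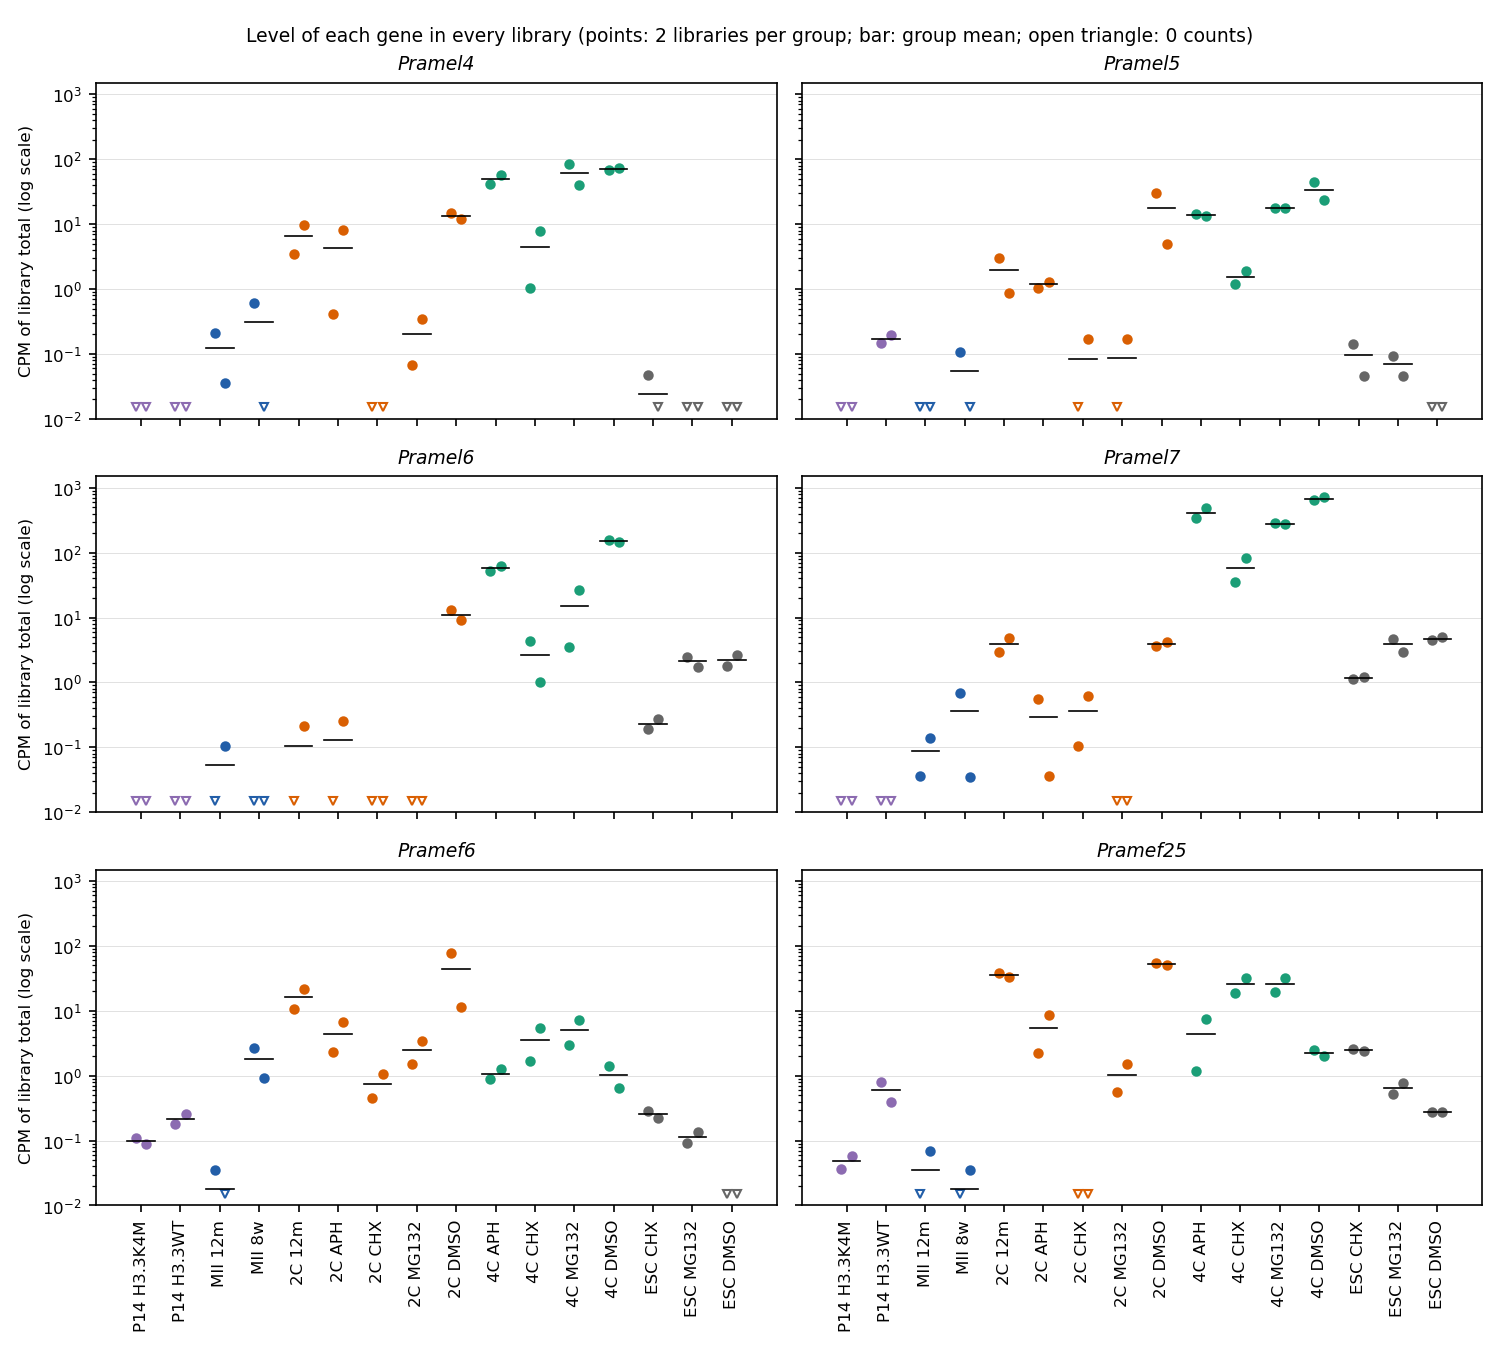
CPM of the library total (log axis) of each of the 6 genes in all 32 libraries; points are libraries, bars are group means and open triangles are libraries with 0 counts. Pramel7 reaches 639 to 714 CPM in 4-cell DMSO embryos, and Pramef25 is at 0 in both cycloheximide 2-cell libraries and at 49.9 to 53.8 CPM in the DMSO ones.

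Ordered over all 16 groups by mean CPM, 4-cell DMSO embryos came first for 4 of the 6 genes (Pramel4, Pramel5, Pramel6 and Pramel7) and 2-cell DMSO embryos for Pramef6 and Pramef25. For Pramel7 the first 5 places were 4-cell DMSO (mean 677 CPM), 4-cell aphidicolin (414), 4-cell MG132 (281), 4-cell cycloheximide (58.8) and ESC DMSO (4.73), with no overlap between the libraries of neighbours. For Pramel6 the order was 4-cell DMSO (153), 4-cell aphidicolin (57.8) and then 4-cell MG132 (15.1) and 2-cell DMSO (11.0), which overlapped. For Pramel4 the 3 highest groups, 4-cell DMSO (71.5), MG132 (62.1) and aphidicolin (49.3), overlapped with their neighbours. For Pramel5, 4-cell DMSO (33.9) stood above 4-cell MG132 (17.6) and 4-cell aphidicolin (13.97), and 2-cell DMSO (17.6) overlapped with all 3. Pramef25 followed 2-cell DMSO (51.9), 2-cell 12-month (35.7), 4-cell MG132 (26.0) and 4-cell cycloheximide (25.7), the last 2 overlapping. Pramef6 was highest in 2-cell DMSO (44.2) and 2-cell 12-month embryos (16.1), which overlapped.

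At 2 cells, 5 of the 6 genes fell with cycloheximide. With cycloheximide Pramef25 had 0 and 0 CPM, against 53.8 and 49.9 CPM with DMSO, and was at least 999-fold lower (adjusted p = 9.9e-05). Pramel4 had 0 and 0 CPM, against 15.0 and 11.9 CPM (at least 259-fold lower, adjusted p = 0.0022), and Pramel6 had 0 and 0 CPM, against 12.9 and 9.11 CPM (at least 212-fold lower, adjusted p = 0.004). These 3 genes had no read in either treated library. Pramel6 passed the count filter only through the DMSO libraries, so the direction of its differences from DMSO at 2 cells was set by the filter.

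Pramel5 had 0 and 0.169 CPM with cycloheximide, against 30.2 and 4.94 CPM with DMSO, and fell by 7.18 ± 1.42 on the log2 scale (adjusted p = 0.0038). Pramef6 had 0.459 and 1.05 CPM, against 76.8 and 11.5 CPM, and fell by 5.43 ± 0.95 (adjusted p = 0.002). Pramel7 had 0.106 and 0.610 CPM, against 3.68 and 4.24 CPM; its libraries did not overlap, and its difference of -3.04 missed the threshold (adjusted p = 0.082). The calls stand where 24.0% of 22391 genes changed in either direction. Without DMSO replicate 1, where Pramel5 and Pramef6 were far higher than in replicate 2, their log2 fold changes were -5.39 and -3.54, still called. DESeq2's Wald test did not call Pramel6 (adjusted p = 0.067) and called Pramel7 (adjusted p = 0.032).

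MG132 gave the same direction for all 6 genes at 2 cells, where 9.77% of 22391 genes changed. For Pramel6 the count filter had set this direction. With MG132 Pramef25 had 0.552 and 1.51 CPM, against 53.8 and 49.9 CPM with DMSO, and fell by 5.70 ± 0.71 on the log2 scale (adjusted p = 0.0011). Pramel7 had 0 and 0 CPM, against 3.68 and 4.24 CPM (at least 57.5-fold lower, adjusted p = 0.01), and Pramel6 had 0 and 0 CPM, against 12.9 and 9.11 CPM (at least 160-fold lower, adjusted p = 0.009). Pramel7 is the 1 gene of the 6 with reads in cycloheximide embryos and none in MG132 embryos.

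Pramel4 had 0.0689 and 0.344 CPM with MG132, against 15.0 and 11.9 CPM with DMSO, and fell by 5.96 ± 1.28 (adjusted p = 0.015). Pramel5 had 0 and 0.172 CPM, against 30.2 and 4.94 CPM, and fell by 7.42 ± 1.43 (adjusted p = 0.0079). Pramef6 had 1.52 and 3.48 CPM, against 76.8 and 11.5 CPM, and fell by 4.22 ± 0.89 (adjusted p = 0.012). The 6 calls did not all hold when 1 library was left out: those of Pramel4 and Pramef6 ended without MG132 replicate 1 (adjusted p = 0.090 and 0.091), those of Pramel4, Pramel6 and Pramel7 without MG132 replicate 2 (0.052, 0.053 and 0.078), and those of Pramel5 and Pramef6 without DMSO replicate 1 (0.064 and 0.11). That of Pramef25 held in each case. DESeq2's Wald test did not call Pramel6 (adjusted p = 0.098).

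Aphidicolin libraries of the 2-cell stage differed between themselves. Pramel4 had 0.419 and 8.11 CPM with aphidicolin, against 15.0 and 11.9 CPM with DMSO. Pramef25 had 2.24 and 8.73 CPM, against 53.8 and 49.9 CPM, and its difference of -3.28 ± 0.62 missed the threshold (adjusted p = 0.080). Pramef6 had 2.31 and 6.62 CPM, Pramel5 1.05 and 1.31 CPM, Pramel6 0 and 0.255 CPM, and Pramel7 0.559 and 0.0364 CPM with the drug.

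All 6 genes were lower in both aphidicolin libraries than in both DMSO libraries. The count filter had set this direction for Pramel6. The share of all genes whose libraries separate between groups was not counted, in this or any other comparison. EdgeR called none of the 6, where 0.201% of 22391 genes were called. At an unadjusted p under 0.05 there were 5, beside 2293 of all 22391 genes, and DESeq2's Wald test called 4. The share of all genes that DESeq2 called is not given here or below, so its counts stand without a background.

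These were bulk libraries, in which fewer cells with a transcript and less transcript per cell cannot be told apart. The summed oocyte markers were higher, and the summed 2-cell markers lower, in each of the 6 libraries with a drug than in both DMSO libraries; their part in these results was not tested. Between the drugs, Pramef25 was at least 19.9-fold lower with cycloheximide than with MG132 (adjusted p = 0.012), the only one of the 6 called where 9.50% of 22391 genes were. Its call ended in the fit of these 4 libraries alone (adjusted p = 0.096) and without MG132 replicate 2 (0.073). Against cycloheximide embryos, aphidicolin embryos held at least 82.2-fold more Pramel4 (adjusted p = 0.0075) and at least 106-fold more Pramef25 (adjusted p = 0.00082), 2 of the 6, with 18.1% of genes called. Pramel4 missed the threshold in the fit of these libraries alone (adjusted p = 0.062). Aphidicolin against MG132 gave none, with 1.64% of 22391 genes called by edgeR. DESeq2 called 2, and 4 had an unadjusted p under 0.05, as did 2846 of all genes.

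**Figure D3:**
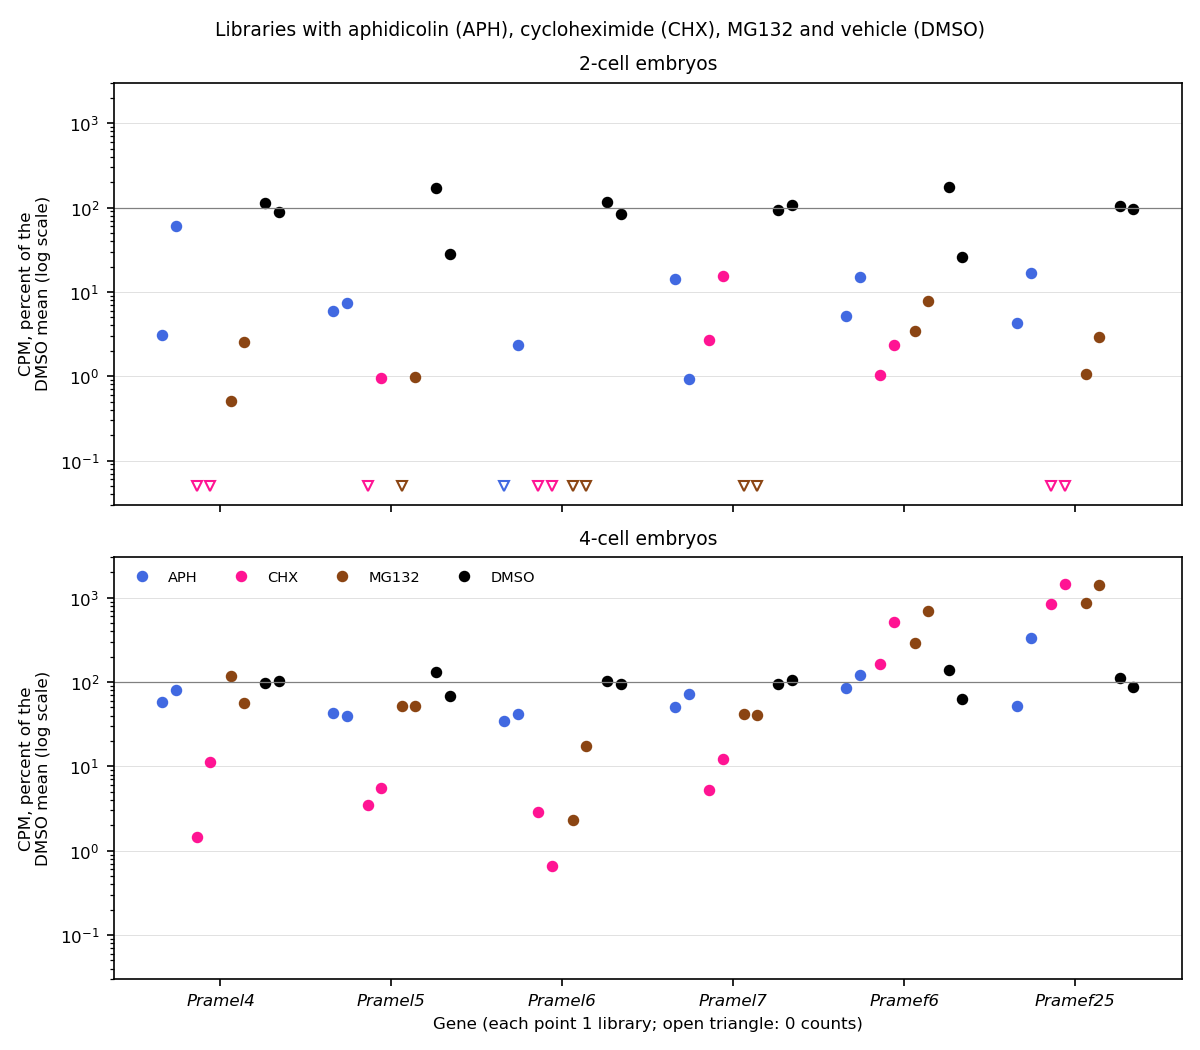
CPM as percent of the DMSO mean of the same stage (log axis) for each gene, in 2-cell (top) and 4-cell embryos (bottom); each point is 1 library and an open triangle is a library with 0 counts. At 2 cells all libraries with a drug lie below both DMSO libraries, a separation that was not counted over all genes. At 4 cells cycloheximide leaves 1.75% to 8.70% of the mean for the 4 Pramel genes, while Pramef25 stands at 1139% with cycloheximide and 1151% with MG132.

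At 4 cells cycloheximide lowered the 4 Pramel genes and raised Pramef25. Pramel6 had 4.33 and 1.01 CPM with cycloheximide, against 159 and 146 CPM with DMSO, and fell by 6.33 ± 1.03 on the log2 scale (adjusted p = 0.0041). Pramel5 had 1.19 and 1.88 CPM, against 44.4 and 23.5 CPM, and fell by 4.90 ± 0.53 (adjusted p = 0.00078). Pramel4 had 1.05 and 8.00 CPM, against 69.5 and 73.6 CPM, and fell by 4.37 ± 0.84 (adjusted p = 0.0083). In the mean these genes kept 1.75%, 4.52% and 6.33% of their DMSO level.

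Pramel7 had 35.8 and 81.9 CPM with cycloheximide, against 639 and 714 CPM, and fell by 3.94 ± 0.43 (adjusted p = 0.00082). Pramef25 had 19.0 and 32.5 CPM with cycloheximide, against 2.52 and 1.99 CPM with DMSO, and rose by 3.08 ± 0.77 (adjusted p = 0.025). Pramef6 had 1.71 and 5.36 CPM, against 1.43 and 0.653 CPM; its libraries did not overlap and its difference of 1.35 ± 0.93 was not called (adjusted p = 0.32). Thus 4 of the 6 fell and 1 rose, where 19.0% of 22520 genes changed. The 9 stem cell markers summed to 1487 and 1401 CPM with cycloheximide, against 4299 and 5175 CPM with DMSO, and the oocyte markers to 290 and 277 CPM, against 152 and 160 CPM; their part in these results was not tested. The summed 2-cell markers were 201 and 339 CPM with cycloheximide, against 47.8 and 24.6 CPM with DMSO; their part in the rise of Pramef25 was not tested. Pramef25 lost its call without cycloheximide replicate 2 (2.51, adjusted p = 0.076) and without either DMSO library (adjusted p = 0.070 and 0.11). Pramel4 fell by 6.63 without cycloheximide replicate 2.

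With MG132 at 4 cells Pramef25 was again the gene that rose. It had 19.7 and 32.3 CPM with MG132, against 2.52 and 1.99 CPM with DMSO, a rise of 3.38 ± 0.78 (adjusted p = 0.036) beside 109 and 125 CPM of summed 2-cell markers with MG132, and was the 1 gene of the 6 called where 7.38% of 22520 genes were. Its call ended without MG132 replicate 2 (adjusted p = 0.085) and without either DMSO library (0.096 and 0.14). Pramel6 had 3.53 and 26.7 CPM, against 159 and 146 CPM (-3.44 ± 0.89, adjusted p = 0.053), and Pramel7 had 283 and 278 CPM, against 639 and 714 CPM (-1.42 ± 0.39, adjusted p = 0.061).

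Neither passed, and DESeq2's Wald test called 3 of the 6. Pramel5 had 17.6 and 17.6 CPM, Pramel4 83.9 and 40.4 CPM, and Pramef6 2.99 and 7.14 CPM with MG132 (adjusted p = 0.17, 0.80 and 0.21). Of the 6, Pramel4 was the 1 gene whose MG132 and DMSO libraries overlapped. The share of all genes without such overlap was not counted.

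With aphidicolin at 4 cells Pramel7 had 340 and 488 CPM, against 639 and 714 CPM with DMSO, Pramel6 52.6 and 62.9 CPM, against 159 and 146 CPM, and Pramel5 14.6 and 13.3 CPM, against 44.4 and 23.5 CPM. Pramel4 had 41.3 and 57.4 CPM, Pramef6 0.890 and 1.27 CPM, and Pramef25 1.19 and 7.58 CPM. The libraries of the 4 Pramel genes did not overlap between the groups, and the share of all genes for which this holds was not counted. None of the 6 was called by edgeR or by DESeq2, and 0.00% of 22520 genes were called by edgeR. Of the 6, 1 had an unadjusted p under 0.05, as did 1846 of all genes.

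Set against each other at 4 cells, cycloheximide and MG132 differed for Pramel4 (-3.98 ± 0.82, adjusted p = 0.019), Pramel5 (-3.79 ± 0.50, adjusted p = 0.0041) and Pramel7 (-2.51 ± 0.40, adjusted p = 0.0074), all lower with cycloheximide, where 10.1% of genes changed. Pramef25 stood at 19.0 and 32.5 CPM with cycloheximide and at 19.7 and 32.3 CPM with MG132 (difference -0.30 ± 0.71, adjusted p = 0.85). Aphidicolin embryos held more of the 4 Pramel genes than cycloheximide embryos, by 3.09 ± 0.41 for Pramel7 to 4.80 ± 0.96 for Pramel6 (adjusted p = 0.0022 and 0.012), where 15.9% of genes changed. Without cycloheximide replicate 2 the values of Pramel4 were -6.25 for cycloheximide against MG132 and 5.96 for aphidicolin against cycloheximide. Pramel6 missed the threshold without that library (adjusted p = 0.063), and Pramel4 (3.69) in the fit of these 4 libraries alone (adjusted p = 0.053). Aphidicolin and MG132 gave no call, with 5.17% of genes called by edgeR. DESeq2 called 1, and 2 had an unadjusted p under 0.05, as did 5018 of 22520 genes.

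Whether a drug acted differently at the 2 stages was tested as the 4-cell log2 fold change minus the 2-cell one. For MG132 all 6 differed, where 11.8% of 27395 genes did, with adjusted p from 0.00027 (Pramef25) to 0.043 (Pramel6). Pramel7 is an example: MG132 left 41.9% and 41.2% of the DMSO mean at 4 cells and 0% and 0% at 2 cells (adjusted p = 0.0098). For cycloheximide Pramef6 (6.67 ± 1.39, adjusted p = 0.0022) and Pramef25 (adjusted p = 8.8e-06) differed, 2 of the 6, where 21.1% of genes did. Cycloheximide left 841% and 1438% of the DMSO mean of Pramef25 at 4 cells and 0% at 2 cells. For aphidicolin none differed, with 0.00% of genes called by edgeR. DESeq2 called 1, and 4 had an unadjusted p under 0.05, as did 3050 of 27395 genes.

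The MG132 difference of Pramel4 rested on every library, as it missed the threshold without any 1 of the 8 (4.94 to 7.37). That of Pramel6 missed the threshold without any but MG132 4-cell replicate 1 (5.53 to 8.45 over the 8). It also missed the threshold in the fit of these 8 libraries alone (adjusted p = 0.059). Those of Pramel5 and Pramef6 missed it without 2-cell DMSO replicate 1 (adjusted p = 0.067 and 0.061). That of Pramef25 held without any 1 of the 8, and that of Pramel7 without any but the 2-cell MG132 libraries (adjusted p = 0.057 and 0.11).

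Embryos with a drug were also compared with the stage before. Against 8-week MII oocytes, aphidicolin 2-cell embryos held more Pramef25, with 32 and 240 counts, against 0 and 1 (pooled ratio 363, 64.6 to 14393; adjusted p = 0.001), 1 of the 6 where 11.2% of 27395 genes were called. Pramef25 passed the count filter only through embryo libraries in these comparisons, so the filter favoured a rise for it. Cycloheximide 2-cell embryos gave none by edgeR, where 11.0% of genes were called. DESeq2 called 1, and 1 had an unadjusted p under 0.05, as did 6390 of 27395 genes. MG132 2-cell embryos held more Pramef25, with 8 and 44 counts, against 0 and 1 (pooled ratio 66.6, 11.4 to 2681; adjusted p = 0.029), and at least 5.26-fold less Pramel7, with 0 and 0 counts, against 19 and 1 (adjusted p = 0.037), 2 of the 6 with 8.61% of genes called. Pramel7 there missed the threshold without oocyte replicate 1 (adjusted p = 0.67) or either MG132 library (0.16 and 0.36), and Pramef25 missed the threshold without either oocyte library (0.20 and 0.083) or without MG132 replicate 2 (0.27), and in the fit of the compared libraries alone (0.061).

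Against 2-cell DMSO embryos, Pramel7 was higher in 4-cell embryos with each drug. Its log2 difference was 6.96 ± 0.87 with aphidicolin (adjusted p = 6.5e-06), 6.44 ± 0.85 with MG132 (adjusted p = 1.7e-05) and 3.75 ± 0.75 with cycloheximide (adjusted p = 0.001). These comparisons share the 2-cell DMSO libraries. Pramef6 was lower with each drug, by 5.07 ± 1.05, 2.80 ± 0.94 and 3.75 ± 0.98 (adjusted p = 0.00085, 0.029 and 0.0071); without 2-cell replicate 1 it was lower by 3.07 with aphidicolin and still called, and the adjusted p was 0.64 with MG132 and 0.31 with cycloheximide, and without replicate 1 of the drug 0.17 and 0.11; with MG132 it was 0.070 in the fit of the compared libraries alone.

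Pramel6 was higher with aphidicolin (2.66 ± 0.92, adjusted p = 0.031), Pramef25 lower with aphidicolin (-3.35 ± 0.84, adjusted p = 0.004) and Pramel5 lower with cycloheximide (-3.65 ± 1.03, adjusted p = 0.012). In all 4 of the 6 were called with aphidicolin, 3 with cycloheximide and 2 with MG132, where 38.7%, 30.1% and 33.5% of 27395 genes were. Pramel6 with aphidicolin missed the threshold without any 1 of the 4 libraries (adjusted p = 0.096 to 0.19) and by DESeq2 (0.15), and Pramel5 with cycloheximide without 2-cell replicate 1 (0.28) or either cycloheximide library (0.12 and 0.056).

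Stem cells held RNA of 3 of the 6 genes in numbers that could be tested. Pramel7 had 1.11 and 1.22 CPM with cycloheximide, against 4.49 and 4.97 CPM with DMSO, and fell by 2.10 ± 0.27 on the log2 scale (adjusted p = 0.002). Pramel6 had 0.193 and 0.272 CPM, against 1.80 and 2.66 CPM, and fell by 3.31 ± 0.40 (adjusted p = 0.0016). Pramef25 had 2.61 and 2.40 CPM, against 0.278 and 0.271 CPM, and rose by 3.08 ± 0.32 (adjusted p = 0.001).

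All 3 tested genes changed with cycloheximide, where 27.0% of 18696 genes did. The libraries of the groups did not overlap for any of them, and each call held without any 1 library. How many of all genes had no overlap was not counted. The summed 2-cell markers were 49.9 and 51.1 CPM with cycloheximide, against 6.85 and 5.51 CPM with DMSO. The predicted gene Gm13119 contains 23.7% of the 50-base stretches of Pramef25. It had 8.88 and 8.01 CPM with cycloheximide, against 0.925 and 0.812 CPM with DMSO. The part of these markers and of Gm13119 in the rise of Pramef25 was not tested. Pramef6, which was not tested, had 6 and 5 counts with cycloheximide, against 0 and 0 with DMSO, at least 3.76-fold higher, and summed with Gm13083 it passed the test (3.07, adjusted p = 0.0071). Pramel5 had 3 and 1 counts, against 0 and 0, at least 1.39-fold higher, and Pramel4 had 1 and 0, against 0 and 0.

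MG132 in stem cells left Pramel7 at 4.71 and 2.98 CPM, against 4.49 and 4.97 CPM with DMSO, and Pramel6 at 2.47 and 1.76 CPM, against 1.80 and 2.66 CPM. Pramef25 had 0.513 and 0.766 CPM, against 0.278 and 0.271 CPM (1.15 ± 0.40, adjusted p = 0.14). None was called by edgeR or DESeq2, and 3.24% of genes were called by edgeR. An unadjusted p under 0.05 was found for 1 of them and for 4572 of 18696 genes. Between cycloheximide and MG132 all 3 differed, by -3.17 ± 0.40 for Pramel6, -1.73 ± 0.27 for Pramel7 and 1.93 ± 0.27 for Pramef25 (adjusted p = 0.0047, 0.0083 and 0.0063), where 17.5% of genes did; each missed the threshold without either cycloheximide library (adjusted p = 0.077 to 0.12).

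In P14 oocytes Pramef25 was the 1 gene of the 6 with enough reads to be tested. It passed the count filter only through the H3.3WT oocytes, so the direction of its difference was set by the filter. It had 1 and 2 counts in H3.3K4M oocytes, against 27 and 12 counts in H3.3WT oocytes, a pooled ratio of 0.0816 (95% counting interval 0.0161 to 0.257; adjusted p = 0.0035), where 22.4% of 15386 genes changed. The call ended without H3.3WT replicate 1 (adjusted p = 0.094). Pramel5 had 0 and 0 counts in H3.3K4M oocytes, against 5 and 6 in H3.3WT oocytes, at least 3.48-fold lower, Pramef6 had 3 and 3, against 6 and 8, and Pramel4, Pramel6 and Pramel7 had no read in any of the 4 libraries, which allows up to 0.0490 CPM in H3.3K4M and 0.0462 CPM in H3.3WT oocytes. The targeted residue is on a transgene, which these counts do not tell from the endogenous H3.3 genes, so the labels were not checked by it.

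Between wild-type MII oocytes of 8 weeks and P14 H3.3WT oocytes, Pramef6 was higher (73 and 26 counts, against 6 and 8; 2.77 ± 0.82, adjusted p = 0.017) and Pramef25 lower (0 and 1 counts, against 27 and 12; pooled ratio 0.0298, 0.000737 to 0.176; adjusted p = 0.013). Both of the 2 genes tested were called, where 61.8% of 17773 genes were. Each passed the count filter only through the group where it was higher, so the direction was set by the filter. Neither call held without either P14 library or without MII replicate 1.

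With maternal age, Pramef6 alone could be tested in MII oocytes. It had 1 and 0 counts in 12-month oocytes, against 73 and 26 in 8-week oocytes (pooled ratio 0.00999, 0.00025 to 0.0569). It missed the threshold (edgeR adjusted p = 0.095), where 0.802% of 15083 genes were called. Its unadjusted p was under 0.05, as for 2305 of those genes, and DESeq2 called it. It passed the count filter only through the 8-week oocytes, where it was higher. At 2 cells Pramel6 had 0 and 0.211 CPM in untreated 12-month embryos, against 12.9 and 9.11 CPM in DMSO embryos (-6.35 ± 1.44, adjusted p = 0.081), Pramel5 3.06 and 0.881 CPM, against 30.2 and 4.94 CPM, and Pramef25 38.3 and 33.1 CPM, against 53.8 and 49.9 CPM. Pramel6 passed the count filter only through the DMSO embryos, which set its direction.

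Pramel7 had 2.96 and 4.86 CPM in the 12-month embryos, against 3.68 and 4.24 CPM, and Pramel4 3.46 and 9.79 CPM, against 15.0 and 11.9 CPM. None of the 6 was called by edgeR or DESeq2, and 1.21% of 22391 genes were called by edgeR. There were 2 with an unadjusted p under 0.05, beside 3165 of all genes. The summed 2-cell markers were 333 and 345 CPM in the 12-month embryos, against 703 and 968 CPM in DMSO embryos, and the oocyte markers 7725 and 8795 CPM, against 5101 and 5727 CPM; their part in these differences was not tested. The change from oocyte to 2 cells did not pass as different between the ages for any of the 6. EdgeR called 0.0174% of 22954 genes there. DESeq2 called 1 of the 6, and 2 had an unadjusted p under 0.05, as did 1712 of all genes.

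Other genes of the family were set beside the 6. Of 21 further annotated PRAME-like genes, 19 reached 1 CPM in some group. Above 100 CPM were 10 of them in P14 H3.3WT oocytes, 8 in 8-week MII oocytes, 8 in 2-cell DMSO embryos and none in 4-cell DMSO embryos, among the first Oog1, Oog2, Oog3 and Oog4, named for their expression in oocytes. From 2 to 4 cells 12 of 19 tested fell and 2 rose, where 49.0% of all genes changed (median log2 fold change -4.86, against -0.57 over all genes tested), Oog4 by 7.92 ± 0.61 (adjusted p = 6.5e-06). Pramel7, Pramel6 and Pramel4, which rose there, thus ran against most of the list, while Pramef6 and Pramef25 had its direction.

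**Figure D4:**
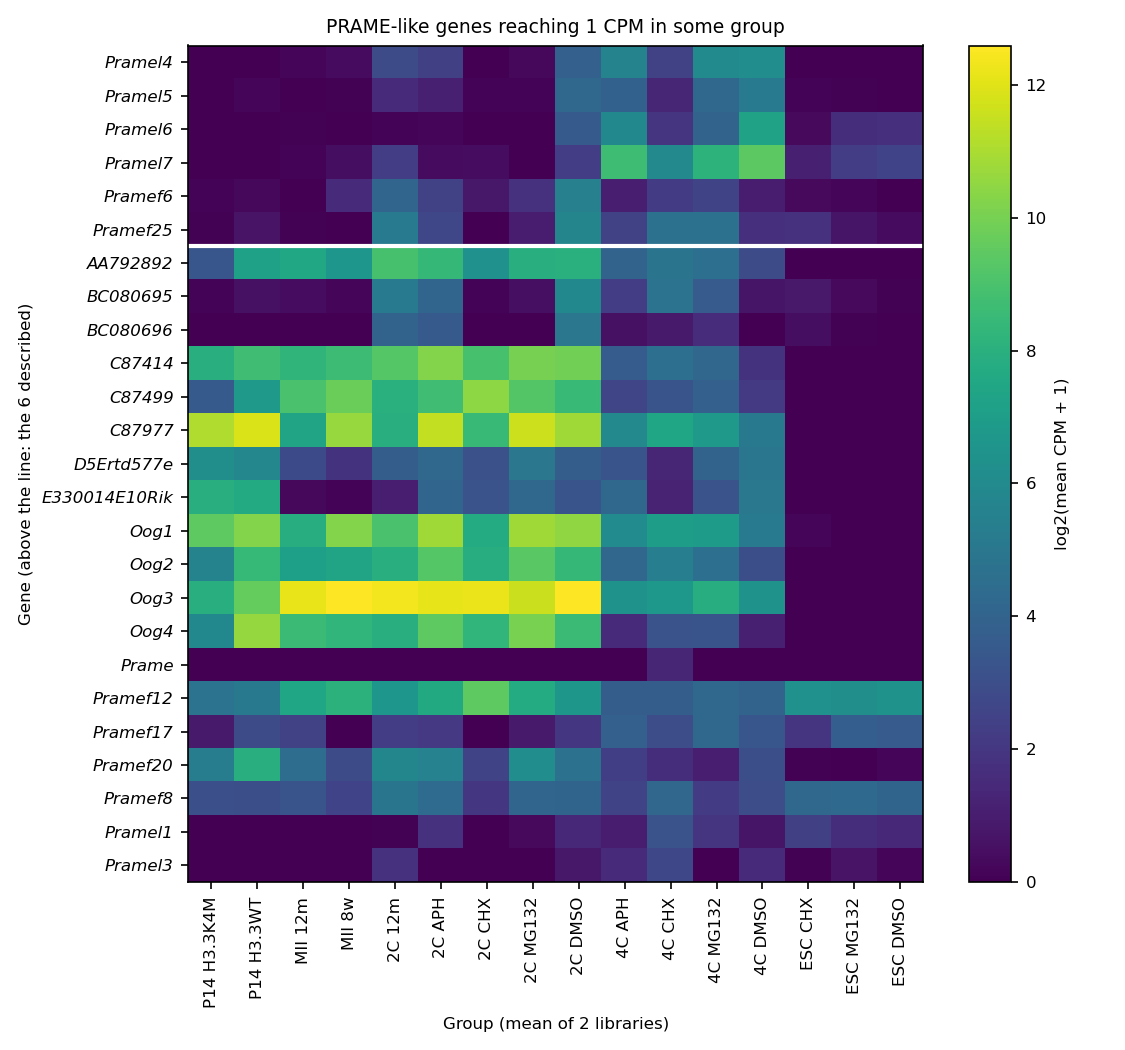
Heat map of log2(mean CPM + 1) in the 16 groups for the 6 genes (above the white line) and the 19 other PRAME-like genes that reached 1 CPM in some group. The oocyte-named genes Oog1 to Oog4 are bright from P14 oocytes to 2-cell embryos, where Pramel6 and Pramel7 are dark in the oocytes and bright in 4-cell DMSO embryos.

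In H3.3K4M oocytes 9 of 15 tested genes of that list fell and none rose, where 22.4% of all genes changed (median -1.66, against 0.00 over all genes), Oog4 by 4.69 ± 0.23 (adjusted p = 2.4e-07) and AA792892 by 3.91 ± 0.24 (adjusted p = 7.8e-07). With cycloheximide at 2 cells 9 of 18 fell and 2 rose, where 24.0% of all genes changed (median -1.59, against -0.26), and with MG132 2 fell and none rose, where 9.77% changed (median 0.08, against -0.07). Those 2 were BC080696 and BC080695, which had at most 0.633 CPM in any MII or P14 oocyte library and averaged 30.5 and 57.6 CPM in 2-cell DMSO embryos. With cycloheximide at 4 cells 5 of 19 rose and 2 fell, where 19.0% of all genes changed (median 1.158, against 0.44 over all genes), BC080695 by 4.96 ± 0.80 (adjusted p = 0.0039). BC080695, in which 29.7% of the 50-base stretches of Pramef25 also occur, averaged 0.127 CPM in 8-week MII oocytes, 57.6 in 2-cell DMSO embryos and 0.644 in 4-cell DMSO embryos, and like Pramef25 was highest at 2 cells among these 3.

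A list of 31 genes with a transient peak at 2 cells, such as Zscan4d and Zfp352, is given beside Pramef25, which is not in it; it holds all 6 annotated 2-cell markers. Of the list, 24 fell with cycloheximide and 23 with MG132 at 2 cells, with 2 higher in each case (medians -6.29 and -5.67), where 24.0% and 9.77% of all genes changed. With cycloheximide 10 rose and 3 fell at 4 cells (median 1.33), where 19.0% of all genes changed, and 19 of 23 tested rose and 1 fell in stem cells (median 3.06, against -0.04 over all genes), where 27.0% changed. From 2 to 4 cells 22 fell and 4 rose, where 49.0% changed.

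Genes of the ligase and of DNA methylation were followed because of the role of Pramel7. From 2 to 4 cells 9 of 17 tested rose and 4 fell, where 49.0% of 22954 genes changed. Among them Elob (6.35 ± 0.67, adjusted p = 3.7e-05) and Eloc (4.34 ± 0.29, adjusted p = 3.3e-06), adaptors of cullin 2, rose with Pramel7, and Uhrf1 fell by 5.21 ± 0.49 (adjusted p = 2.0e-05). With cycloheximide at 4 cells Cul2 (-2.28 ± 0.37, adjusted p = 0.0039) and Eloc (-3.65 ± 0.33, adjusted p = 0.00046) fell and Uhrf1 rose (2.46 ± 0.40, adjusted p = 0.0039), 1 of 18 higher and 5 lower, where 19.0% of 22520 genes changed. These are RNA levels, and no protein was measured. In the list of LIF, STAT3 and naive pluripotency genes, cycloheximide in stem cells lowered 7 of 21 and raised 1, where 27.0% of 18696 genes changed, with Lifr, the LIF receptor, at -0.81 ± 0.11 (adjusted p = 0.0023) and Lif at 1.14 ± 0.13 (adjusted p = 0.0013).

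Over the 16 group means of log2(CPM + 1), which share libraries and handling and are given as a description, each gene was most like 1 other of the 6: Pearson's r was 0.966 for Pramel4 and Pramel5, 0.916 for Pramel6 and Pramel7, and 0.858 for Pramef6 and Pramef25. The part of the stretches that Pramel4 and Pramel5 share in their value was not tested. The lowest values were those of Pramef6 with Pramel7 (0.149) and with Pramel6 (0.172). Among 12140 genes reaching 10 CPM in some group, predicted models and the 6 left out, the 3 most like each were as follows. For Pramel4 they were Esp24 (0.975), Usp9y (0.957) and Obox8 (0.956), a homeobox gene of the early embryo, and for Pramel5 Esp24 (0.934), Usp9y (0.922) and Dynap (0.919). For Pramel6 they were Faiml (0.958), Platr23 (0.949) and Cited1 (0.939), and for Pramel7 Rab39 (0.980), Rps19-ps7 (0.979) and Map1lc3b (0.977). For Pramef6 they were Olfr699 (0.924), Olfr881 (0.924) and Drr1 (0.920), and for Pramef25 Zfp352 (0.965), BB287469 (0.964) and Usp17ld (0.960), all 3 on the list of 2-cell genes.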

How the data were processed

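The deposited values are raw counts of reads per gene and per repeat subfamily, 1 table a library, made by the authors with cutadapt 1.16 and STAR on mm10, per the submitters' processing notes; what counted the reads, whether strand was used and how reads with more than 1 position were assigned is not stated there or in the labels. Of 55335 gene identifiers 55154 were matched to GENCODE symbols. The 6 genes and all gene lists were chosen with earlier results of these data known.

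Levels are counts per 1e6 of the library total over genes and 1153 repeat subfamilies. Comparisons used edgeR 4.0.16 in R 4.3.3 (robust quasi-likelihood fit, TMM scaling over genes and repeats, Benjamini-Hochberg adjustment over all genes tested, threshold 0.05). The count filter asked for a CPM worth about 10 counts in at least as many libraries as the smallest group has. It also asked for at least 15 counts in all. A gene kept only through the group where it is high has its direction set by this filter. Libraries of 1 stage shared a fit; comparisons across stages used the MII, vehicle and untreated embryo libraries, and those of embryos with a drug against an earlier stage, and between stages, all MII and embryo libraries. DESeq2 1.42.0 was an alternative. The procedure was tested on simulated data. Where a group had no read, the fold is a bound against 3 counts over the group; with 1 to 3 reads it is a ratio of pooled CPM with an exact 95% counting interval. Both cover counting error only. Genes alike were the 3 with the highest Pearson's r over the 16 group means of log2(CPM + 1). Genes named from a list passed the test and were among the largest changes. Depth limits a single library to the value of 1 read, 0.0288 to 0.0699 CPM.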

Additional observations from a re-analysis of the deposited data

Results flagged for a closer look

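The effect of MG132 differed between 4-cell and 2-cell embryos for all 6 genes in a test of the difference itself (edgeR, quasi-likelihood, adjusted over all genes). The 4-cell log2 fold change minus the 2-cell one was 9.13 ± 1.26 for Pramef25, 6.39 ± 1.37 for Pramef6, 6.35 ± 1.54 for Pramel5 and 5.63 ± 1.68 for Pramel4. The fitted values for Pramel7 (8.22) and Pramel6 (7.62) depend on the prior count, since both had no read in the 2-cell MG132 libraries. At 4 cells MG132 left 41.5% of the mean DMSO level of Pramel7 and 1151% of that of Pramef25.

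The effect of cycloheximide differed in the same test for Pramef6 (6.67 ± 1.39) and Pramef25. For Pramef25 the fitted difference of 16.25 is no measured size, since both 2-cell cycloheximide libraries were at 0 counts.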

How the results depend on the processing

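Each fit has 2 libraries a group, and Pramel4, Pramef25 and Pramef6 share reads with copies, which limits both the tests and the levels. The counts given here are of the 6 genes called, without the share of all genes called in the same setting. Scaling by DESeq2 size factors and library sizes from genes alone kept every count within 1.5 times. So did summing Pramel4 with Gm13102, Pramef6 with Gm13083 and Pramef25 with Gm13057, the gene sharing most stretches with each. Gm13057 had at most 5 and 9 counts in a group, so that sum could hardly change Pramef25. Its copy BC080695, which averaged 57.6 CPM in 2-cell DMSO embryos, was not summed with it, and Pramel5 was summed with none. The summing thus leaves the part of copies in Pramef25 and Pramel5 untested. Levels from gene counts alone also put 4-cell DMSO embryos first for 4 genes. With library sizes from genes alone the median log2 fold change of all genes moved to 0.64, from 0.33, between 2-cell DMSO embryos and 8-week oocytes, with 2737 genes higher and 1654 lower in place of 2317 and 2324. Between 12-month embryos and oocytes it moved to 0.39, from 0.19, with 1509 higher and 1155 lower in place of 1332 and 1552. The 6 genes kept their directions there.

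DESeq2's Wald test called 4 genes for 2-cell aphidicolin, 3 for 4-cell MG132, 2 for cycloheximide against MG132, 4 for aphidicolin against cycloheximide and 2 for aphidicolin against MG132 at 2 cells. It called 1 for aphidicolin against MG132 at 4 cells, 1 for age in MII oocytes, 1 for the difference between ages, 1 for the aphidicolin difference between stages, and 3 and 1 for aphidicolin and cycloheximide 2-cell embryos against MII oocytes. For cycloheximide against DMSO at 2 cells it did not call Pramel6 (adjusted p = 0.067) and called Pramel7 (adjusted p = 0.032). With no filter on low counts there were 2 calls for P14 oocytes, 4 for MII against P14 oocytes, 5, 2, 3, 4 and 3 at 2 cells (aphidicolin, 12 months, cycloheximide against MG132, aphidicolin against cycloheximide, aphidicolin against MG132), and 1, 3 and 2 at 4 cells (aphidicolin, MG132, aphidicolin against MG132). Without the filter there were also 1 for age in oocytes, 2 for the difference between ages, 4 and 1 for aphidicolin and cycloheximide 2-cell embryos against oocytes, and 3 and 4 for the aphidicolin and cycloheximide differences between stages. A filter of 5 CPM in 2 libraries left 0 calls for P14 oocytes, for MII against P14 oocytes, for cycloheximide in stem cells against DMSO and against MG132, where too few of the 6 passed, and gave 1 for 2-cell aphidicolin, 3 for 4-cell MG132 and 1 for aphidicolin against MG132 at 4 cells. Fits of the compared libraries alone gave 0 for cycloheximide against MG132 and 1 for aphidicolin against cycloheximide at 2 cells, 2 for 4-cell MG132 and 0 for MG132 2-cell embryos against oocytes; this fit is the same as the main one for the P14 and the MII age comparison.

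With the replicate number of the labels as a replicate block there was 1 call for 2-cell aphidicolin (Pramef25, -3.45), 1 for 12-month embryos (Pramel6, -6.92), 3 for 4-cell MG132 (Pramel6 and Pramel7 besides Pramef25) and 1 for aphidicolin against MG132 at 4 cells; Pramel5 was also called from 2 to 4 cells, at 1.84, and no other count moved by more than 1.5 times. Nothing in the labels says that a number marks a shared batch. Deviations of same-numbered libraries correlated at 0.093 to 0.19 between the 2-cell drug and DMSO groups over 22391 genes and at 0.227 to 0.438 over the 6918 of them reaching 10 CPM, at -0.014 to 0.045 at 4 cells, at 0.0096 to 0.044 in stem cells, at -0.052 in MII oocytes and at -0.17 in P14 oocytes. With the P14 numbers crossed, an alternative chosen after seeing the data like the summing with copies, the count was 1, the same as without a block.

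Leaving out 1 library at a time gave 0 to 1 calls for P14 oocytes, 0 to 4 for MII against P14 oocytes, 0 to 2 for MG132 and 0 to 3 for cycloheximide against MG132 in stem cells, and 0 to 1 for age in oocytes. At 2 cells it gave 0 to 1 for aphidicolin, 3 to 6 for MG132, 0 to 2 for cycloheximide against MG132 and 0 to 2 for aphidicolin against MG132, and at 4 cells 0 to 1 for MG132, 3 to 5 for aphidicolin against cycloheximide and 0 to 1 for aphidicolin against MG132. Across stages it gave 3 to 5 for 12-month embryos against oocytes, 0 to 1 for MG132 2-cell embryos against oocytes, 1 to 3 for cycloheximide and 1 to 2 for MG132 4-cell embryos against 2-cell DMSO, 0 to 1 for the aphidicolin and 2 to 5 for the MG132 difference between stages. A lone library is assumed there to vary like the other groups. The cause was not tested.

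Signs turned round 10 times, all in differences that were not called. Pramel6 in stem cells with MG132 ranged over -0.38 to 0.14, with 0.079 without MG132 replicate 2 and 0.14 without DMSO replicate 2. In 12-month 2-cell embryos against DMSO, Pramel7 ranged from -0.038 without 12-month replicate 2 to 0.51, and Pramef6 from -1.92 to 0.70 without DMSO replicate 1. With aphidicolin at 4 cells Pramef6 was 0.096 summed with Gm13083, 0.0043 without aphidicolin replicate 1 and 0.60 without DMSO replicate 1 (lowest -0.59), and Pramef25 -0.93 without aphidicolin replicate 2. Between 12-month embryos and oocytes Pramel6 was -0.40 without oocyte replicate 1 and -3.98 without embryo replicate 2 (highest 4.58).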
